A study of Mus musculus with 7 samples.

Results

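The Dlx and Msx genes encode homeodomain transcription factors. Of the 23366 gene symbols in the H3K27me3 count files of this series, 8 were taken by name: the 6 Dlx genes, Dlx1 to Dlx6, and the Msx genes Msx1 and Msx2. Each had 1 entry in each file, and all 8 passed the minimum of 20 reads over both libraries. H3K27me3, the trimethylation of lysine 27 on histone H3, was mapped by chromatin immunoprecipitation and sequencing in spermatocytes of wild-type CD1 mice at postnatal day 12 (P12) and postnatal day 17 (P17). The cells came from enzyme-digested testes by Percoll fractionation, per the labels' protocols, so other testis cells may be present in an amount the labels do not give. The P12 file holds 1 replicate and the P17 file pools 2, per the labels, with the same antibody named for both. No replicate spread can be computed, every interval below covers counting error only, and no p-value was computed. The other data of the series (H3K4me3, EED and input) were not used for these genes.

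H3K27me3 is laid down by Polycomb repressive complex 2 and marks genes held silent, most often developmental regulators whose promoters are rich in CpG dinucleotides. Most mammalian Dlx genes lie in convergently transcribed pairs of neighbours, Dlx1 with Dlx2, Dlx3 with Dlx4 and Dlx5 with Dlx6, which share enhancers. They act in the jaw, downstream of endothelin signalling, and in forebrain GABAergic neurons, limb, inner ear and placenta. The Msx genes, on separate chromosomes, are targets of BMP signalling in tooth, skull and limb, and their proteins mostly repress transcription. In the male germ line these genes belong to the somatic programme.

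Over 23530 entries, 13462873 reads were counted in the P12 file and 26664736 in the P17 file. Values are given as CPM, the reads of a gene per 1000000 reads counted over gene bodies in the same file. Gene lengths were not used, so levels were compared mainly between stages. Ranks and shares of CPM across genes, where given below, also depend on gene length. The log2 ratio P17/P12 over 21808 genes had a median of -0.08, with 10th and 90th percentiles at -0.34 and 0.47. Read counts of a histone mark do not measure expression, so they cannot check the cell type by its transcripts. For the marker lists, genes were called above or below the all-gene median by the rule of the next paragraph. The median log2 ratio was -0.20 over 12 meiotic germ cell genes, with 1 called above and 5 below. It was 0.03 over 12 spermatogonial genes, from -0.34 to 1.23, with 5 called above and 2 below. It was 0.62 over 11 Sertoli cell genes, from -0.30 to 1.23, with 8 called above and 0 below. It was -0.07 over 11 genes of Leydig, peritubular, endothelial and macrophage cells, with 1 called above and 1 below. Of all genes, 21.2% were called above and 10.1% below. The part of a changing cell mixture in the ratios below was not tested. In such bulk chromatin, fewer marked cells and less mark per cell cannot be told apart.

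H3K27me3 over all 8 genes took a larger share of reads in the P17 library than in the P12 library, by less than 2-fold. Their summed level was 438 CPM in the P12 library and 548 CPM in the P17 library, a log2 ratio of 0.32 (95% interval 0.28 to 0.37). A gene was called above the typical gene when the exact 95% interval of its ratio lay wholly above the all-gene median. All 8 were called above, where 21.2% of all genes were, and 36.4% of the 7876 genes with at least 1000 reads, a minimum chosen after the data were seen because every one of the 8 passed it. None of the 8 was called below, where 10.1% of all genes were. None was over 2-fold higher with an interval excluding a ratio of 1, against 2.57% of all genes, or over 2-fold lower, against 0.335%. The 8 ratios ran from 0.09 to 0.59 with a median of 0.22, so all lay above the all-gene median and all but Dlx6 lay below the 90th percentile. Because no input was used, a stage difference cannot be told apart from a P17 immunoprecipitation with less background.

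**Figure D1:**
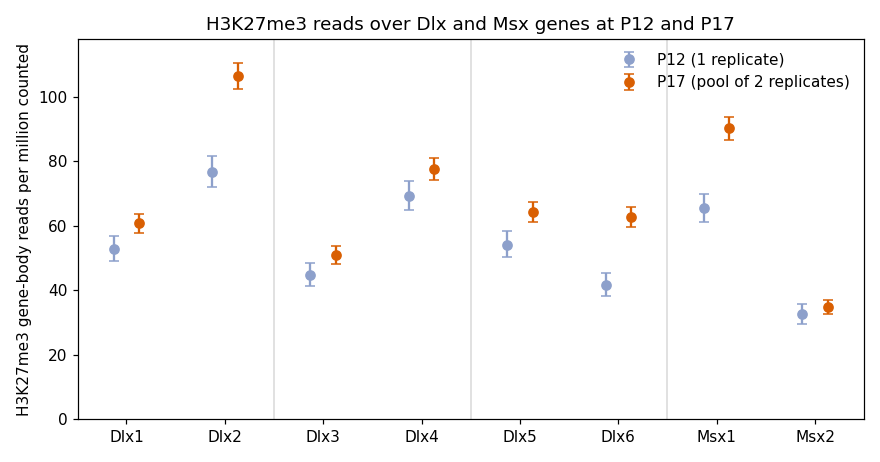
H3K27me3 gene-body CPM (y axis, linear from 0) for the 8 genes (x axis) at P12 (blue, 1 replicate) and P17 (orange, a pool of 2 replicates); bars are exact Poisson 95% intervals of counting error. Every P17 point lies above its P12 point, and the P12 and P17 intervals of Dlx2, Dlx6 and Msx1 are the most widely separated.

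Dlx1 and Dlx2, the pair on chromosome 2, act together in the differentiation of forebrain interneurons. Dlx1 had 713 reads at P12 and 1621 at P17, or 53.0 and 60.8 CPM. Dlx2 had 1033 and 2837 reads, or 76.7 and 106 CPM. The P17 value was the higher for both, but by unequal amounts: the log2 ratio was 0.20 (0.07 to 0.33) for Dlx1 and 0.47 (0.37 to 0.58) for Dlx2. Dlx2 exceeded Dlx1 by 0.27 (0.11 to 0.44), a difference that does not depend on library scaling since both genes come from the same libraries. The pair as a whole went from 130 to 167 CPM, a log2 ratio of 0.37 (0.29 to 0.45).

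The promoters of 4 of the 8 genes were found in the RefSeq promoter table (GRCm38.p6, 250 bases before to 50 bases after a transcript start); Dlx3, Dlx4, Dlx5 and Dlx6 had no entry. They are shown because a CpG-rich promoter is the usual setting of H3K27me3 at developmental genes and because these are 2 genes with higher and 2 with lower ratios. Capitals mark CpG dinucleotides, and each strand is read 5′ to 3′. The Dlx1 promoter (chr2:71529195-71529494, plus strand) and the Dlx2 promoter (chr2:71546705-71547004, minus strand) face each other across the pair. The Msx1 promoter is at chr5:37824536-37824835 and the Msx2 promoter at chr13:53472731-53473030, both on the minus strand. These positions are GRCm38, whereas the reads were counted in mm9.
Dlx1: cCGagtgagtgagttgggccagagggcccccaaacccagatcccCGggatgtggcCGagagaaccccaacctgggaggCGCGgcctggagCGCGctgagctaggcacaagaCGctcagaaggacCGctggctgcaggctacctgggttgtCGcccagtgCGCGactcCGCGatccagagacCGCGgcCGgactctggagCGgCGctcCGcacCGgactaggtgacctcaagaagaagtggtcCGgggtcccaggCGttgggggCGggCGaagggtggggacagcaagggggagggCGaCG
Dlx2: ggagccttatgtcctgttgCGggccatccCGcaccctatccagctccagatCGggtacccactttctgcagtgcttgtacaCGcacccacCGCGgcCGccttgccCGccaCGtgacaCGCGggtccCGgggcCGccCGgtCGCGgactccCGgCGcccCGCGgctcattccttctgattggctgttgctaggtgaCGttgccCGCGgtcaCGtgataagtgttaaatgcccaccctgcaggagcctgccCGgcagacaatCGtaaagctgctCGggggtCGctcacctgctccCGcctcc
Msx1: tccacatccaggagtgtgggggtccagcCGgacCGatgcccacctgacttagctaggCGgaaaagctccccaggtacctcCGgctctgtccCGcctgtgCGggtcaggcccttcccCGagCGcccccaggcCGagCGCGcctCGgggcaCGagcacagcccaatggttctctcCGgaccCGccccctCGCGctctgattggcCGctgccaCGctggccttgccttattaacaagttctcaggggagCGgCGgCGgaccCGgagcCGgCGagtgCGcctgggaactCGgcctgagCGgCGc
Msx2: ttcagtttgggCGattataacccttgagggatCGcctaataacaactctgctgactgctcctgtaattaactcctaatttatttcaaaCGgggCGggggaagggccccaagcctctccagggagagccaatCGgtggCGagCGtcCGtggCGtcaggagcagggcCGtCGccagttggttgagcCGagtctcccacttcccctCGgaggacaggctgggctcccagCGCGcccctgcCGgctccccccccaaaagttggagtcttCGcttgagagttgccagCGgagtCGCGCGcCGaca

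All 4 promoters were rich in CpG. Dlx1 had 27 CpG in its 300 bases, Dlx2 and Msx1 had 29 each and Msx2 had 22, against a median of 7 over 32841 RefSeq promoters of the same length. Fewer CpG than in Dlx1 were present in 84.5% of promoters, fewer than in Dlx2 or Msx1 in 87.1%, and fewer than in Msx2 in 76.9%. GC content was 69.3% in Dlx1, 66.3% in Dlx2, 70.0% in Msx1 and 61.0% in Msx2, with a median of 52.7% over all promoters. The ratio of observed to expected CpG was 0.77 to 0.90 over the 4, where the median promoter had 0.38. The high-ratio genes Dlx2 and Msx1 had the most CpG, but with 4 promoters this is a description. The gene-body counts do not resolve the promoter from the rest of the gene. Among short motifs searched on both strands, TAATTA, a core sequence bound by many homeodomains, occurred 1 time in Msx2 and in none of the other 3, and in 5.29% of all promoters. The CCAAT box occurred 1 time in Dlx2, 2 times in Msx1, 1 time in Msx2 and not in Dlx1, and in 37.4% of all promoters. TATAAA was in none of the 4 and in 13.6% of all promoters. The TAATTA and CCAAT motifs do not overlap each other in sequence.

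**Figure D2:**
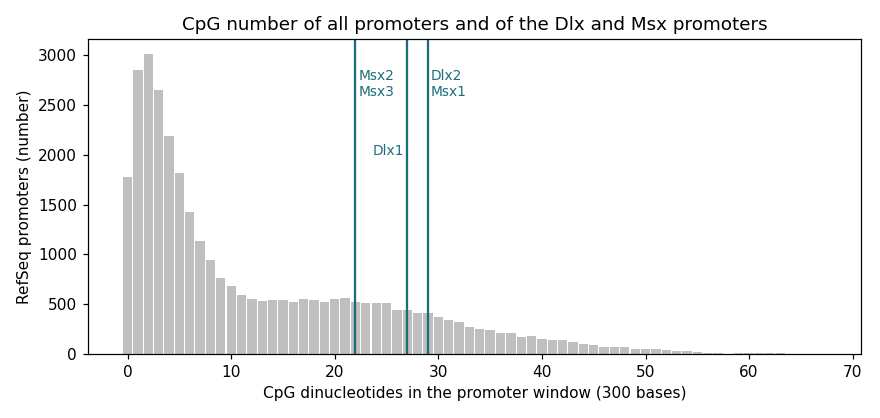
Number of RefSeq promoters (y axis, bars) by their number of CpG dinucleotides in the 300-base window (x axis); vertical lines mark the promoters of Dlx1, Dlx2, Msx1, Msx2 and the related gene Msx3. All 5 lie at 22 to 29 CpG, to the right of the median of 7.

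Dlx3 and Dlx4, the pair on chromosome 11, include Dlx3, a regulator of placenta, hair, tooth and bone. Dlx3 had 602 reads at P12 and 1360 at P17, or 44.7 and 51.0 CPM. Dlx4 had 933 and 2069 reads, or 69.3 and 77.6 CPM. Both P17 values were slightly higher, with log2 ratios of 0.19 (0.05 to 0.33) for Dlx3 and 0.16 (0.05 to 0.28) for Dlx4. The difference, Dlx4 minus Dlx3, was -0.03 with an interval of -0.21 to 0.15, so the counts neither separated the 2 genes nor showed them equal. Together the 2 genes went from 114 to 129 CPM, and their pooled log2 ratio of 0.17 (0.09 to 0.26) was the lowest of the 3 Dlx pairs.

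Dlx5 and Dlx6, the pair on chromosome 6, give lower jaw identity to the first pharyngeal arch. Dlx5 had 730 reads at P12 and 1715 at P17, or 54.2 and 64.3 CPM. Dlx6 had 561 and 1671 reads, or 41.7 and 62.7 CPM. Dlx6 had the highest log2 ratio of the 8 genes, 0.59 (0.45 to 0.73), while Dlx5 stood at 0.25 (0.12 to 0.37). Dlx6 exceeded its neighbour by 0.34 (0.15 to 0.53). As a pair they went from 95.9 to 127 CPM, a log2 ratio of 0.41 (0.31 to 0.50).

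The Msx genes differed from each other as well. Msx1, which is needed for tooth and palate, had 881 reads at P12 and 2406 at P17, or 65.4 and 90.2 CPM, a log2 ratio of 0.46 (0.35 to 0.58). Msx2, a regulator of skull and skin appendages, had 440 and 929 reads, or 32.7 and 34.8 CPM. Its log2 ratio was the lowest of the 8 at 0.09, and its interval of -0.07 to 0.26 included equal levels. Msx2 cleared the all-gene median of -0.08 only narrowly. With at least 1000 reads required the median was -0.05 and 7 of the 8 were called above, Msx2 no longer among them. Against that median, 33.6% of all genes with at least 1000 reads were called above. Msx2 minus Msx1 was -0.37 (-0.57 to -0.17). Msx3, a related gene of the dorsal neural tube that is not one of the 8, had 390 and 944 reads and a log2 ratio of 0.29 (0.12 to 0.46).

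**Figure D3:**
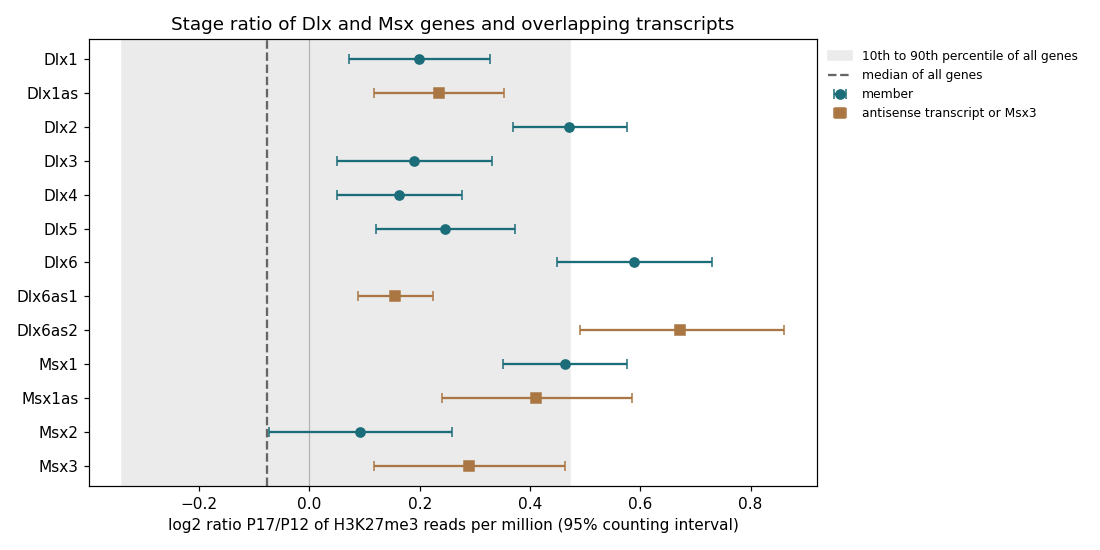
Log2 ratio P17/P12 of H3K27me3 CPM (x axis) with exact 95% counting intervals for the 8 genes (teal circles) and for antisense transcripts and Msx3 (brown squares); the dashed line is the median of all genes and the grey band their 10th to 90th percentile. Dlx6, Dlx2 and Msx1 lie furthest right among the 8, at 0.59, 0.47 and 0.46, and the Msx2 interval ends close to the dashed line.

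In order of ratio the 8 genes were Dlx6, Dlx2, Msx1, Dlx5, Dlx1, Dlx3, Dlx4 and Msx2. Of the 7 steps between neighbours in this order, 1 had an interval that excluded 0, that from Msx1 down to Dlx5 (0.22, 0.05 to 0.39). Of all 28 pairs of the 8 genes, 15 had an interval excluding 0, each at the 95% level with no adjustment for their number. Such an interval was common: 53.0% of neighbouring gene pairs with at least 1000 reads in both genes had one. The share over pairs of any 2 genes was not computed. The 15 were the pairs formed by 1 of Dlx6, Dlx2 and Msx1 with 1 of the other 5 genes, with differences of 0.22 to 0.50. Among the 13 pairs inside either group, 0 had such an interval, and the largest difference was 0.15. Dlx6, Dlx2 and Msx1 held 42.0% of the 8 genes' CPM at P12 and gave 75.5 of the 110 CPM by which the P17 sum was higher, or 68.5%. Since this grouping was read from the ratios themselves, the split of pairs across and inside the groups follows in part from the sorting. For genes picked as the highest ratios, the share of the gain (68.5%) also had to exceed the share at P12 (42.0%). The grouping is a description of the 2 libraries.

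An unequal ratio between neighbours was common in these libraries. Of the 3 Dlx pairs, 2 had a difference interval that excluded 0. Over 17533 pairs of neighbouring, non-overlapping protein-coding genes, 31.1% did, and over the 3591 such pairs in which both genes had at least 1000 reads, as in every Dlx pair, 53.0% did. The median absolute difference was 0.24 over all neighbours and 0.19 over those with deep counts, beside 0.27 for Dlx2 minus Dlx1, -0.03 for Dlx4 minus Dlx3 and 0.34 for Dlx6 minus Dlx5.

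Antisense transcripts overlap 3 of the 8 genes, and ChIP reads carry no strand of transcription, so the reads of overlapping entries cannot be told apart. In the RefSeq gene table (GRCm38, used for names and order only), Dlx1as overlaps Dlx1 and not Dlx2, Dlx6as2 lies inside Dlx6, Dlx6 lies inside Dlx6as1, and Msx1as lies inside Msx1. Dlx1as, with 837 and 1950 reads, had a log2 ratio of 0.23 (0.12 to 0.35), and Dlx1 minus Dlx1as was -0.04 (-0.21 to 0.14). Msx1as, with 382 and 1006 reads, stood at 0.41 (0.24 to 0.58), and Msx1 minus Msx1as was 0.05 (-0.16 to 0.26). At the Dlx6 locus the entries were unequal. Dlx6as2, with 319 and 1008 reads, stood at 0.67 (0.49 to 0.86), and Dlx6 minus Dlx6as2 was -0.08 (-0.32 to 0.15). Dlx6as1, the long noncoding transcript known as Evf2 that spans an enhancer of the pair, had 2516 and 5550 reads and a log2 ratio of only 0.16 (0.09 to 0.22). Dlx6 exceeded Dlx6as1 by 0.43 (0.28 to 0.59). Each of these difference intervals treats shared reads as separate. Reads of Dlx6as2 and Msx1as may be part of the counts of Dlx6 and Msx1, so their close ratios may be built in. The higher ratio of this stretch was therefore in Dlx6 and the Dlx6as2 entry inside it, which are not separate observations. The value over the longer entry was lower.

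The 8 genes were next set beside the 4 nearest protein-coding genes on each side of the 5 loci. Of these 40 flanking genes, 16 were called above the all-gene median, 4 below, and 20 had intervals that spanned it, beside 21.2% of all genes called above and 10.1% below. They had a median log2 ratio of -0.03. None was over 2-fold higher or lower. At the Dlx1 and Dlx2 locus, the mitochondrial methionine aminopeptidase gene Metap1d, next to Dlx1, stood at -0.25 (-0.38 to -0.11), and the integrin gene Itga6, next to Dlx2, at 0.01 (-0.12 to 0.14). There the histone acetyltransferase gene Hat1 stood at -0.11. Further out, Slc25a12 at 0.06 and Pdk1 at 0.36 were called above, and the Pdk1 ratio was higher than that of Dlx1, with overlapping intervals. Next to Dlx6, the proteasome gene Shfm1 stood at 0.00 (-0.28 to 0.30), and next to Dlx5, Acn9 stood at -0.25 (-0.42 to -0.09). Beyond Acn9 the tachykinin gene Tac1 stood at 0.24 and the asparagine synthetase gene Asns at 0.33, both called above. On the Dlx6 side, Pdk4 stood at 0.54 and was called above. The ratios of Asns and Pdk4 were higher than that of Dlx5, with intervals that overlapped that of Dlx5.

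At the Dlx3 and Dlx4 locus, the genes on the Dlx3 side had higher ratios than the pair, though not every interval was clear of the pair's intervals. There the nearest gene was among those with higher ratios, unlike at the other Dlx loci. The integrin gene Itga3 stood at 0.58 (0.44 to 0.72), with 42.1 CPM at P12 and 62.9 CPM at P17. The highest ratio of the 40 flanking genes was also there, at Ppp1r9b, 0.98 (0.79 to 1.19) (named after its value was seen). On the Dlx4 side, the tachykinin gene Tac4 at -0.10, the acetyltransferase gene Kat7 at -0.11 and Fam117a at 0.06 had intervals spanning the all-gene median. Around Msx1, the cytokine-like gene Cytl1 stood at -0.39 (-0.77 to -0.02) on 101 and 152 reads, the syntaxin gene Stx18 at -0.11 and the kinase gene Stk32b at 0.02 (-0.04 to 0.08). Of these, Stk32b was called above. Further out, Evc at 0.35 (0.21 to 0.50) and Evc2 at 0.19 (0.08 to 0.30), both genes of cilia and hedgehog signalling, were called above too. Of the 8 flanking genes of Msx1, 4 were called above and 0 below. Beside Msx2, the dopamine receptor gene Drd1a stood at -0.21, Sfxn1 at -0.25 and the histamine receptor gene Hrh2 at -0.30, the last 2 called below, while Cplx2, a complexin gene of synaptic release, stood at 0.41 (0.26 to 0.57). On the other side, the transcription factor gene Nfil3 at 0.63 (0.47 to 0.80) and the Wnt receptor gene Ror2 at 0.17 (0.10 to 0.23) were called above. Both ratios were higher than that of Msx2, but the Ror2 interval lay inside that of Msx2.

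**Figure D4:**
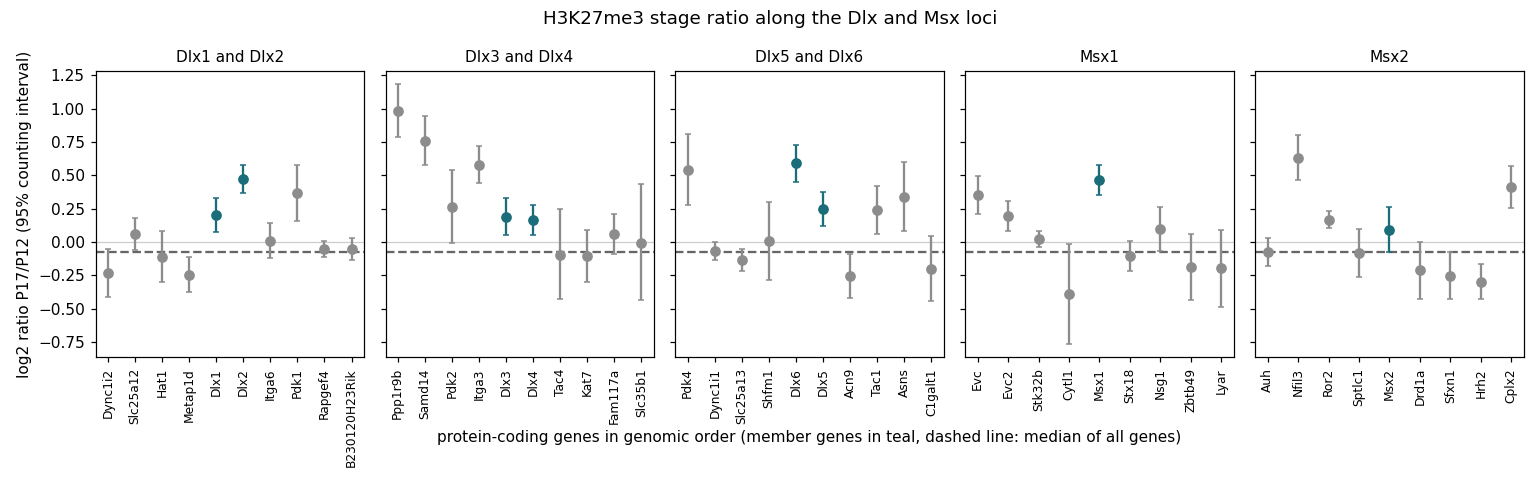
Log2 ratio P17/P12 with exact 95% counting intervals (y axis) for the 8 genes (teal) and the 4 nearest protein-coding genes on each side (grey), in genomic order (x axis, not to scale), 1 panel per locus; the dashed line is the median of all genes. Every locus except that of Dlx3 and Dlx4 has its Dlx or Msx genes above the nearest gene on either side, whereas Itga3, Samd14 and Ppp1r9b stand above Dlx3. Further out at other loci, Pdk1 stands above Dlx1 and Pdk4 above Dlx5, each with overlapping intervals, and Nfil3 stands above Msx2.

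Other homeobox genes of the NK-like group, the classes nearest to Dlx and Msx, were also mostly on the upper side of the all-gene median. The genes listed for this group include Msx3 but no Nkx gene, so they do not cover the whole group. Barx1 is also in the pathway list described below. Of 26 with entries, 21 were called above the all-gene median and 2 below, and 0 were over 2-fold different, with a median log2 ratio of 0.32. Of all genes, 21.2% were called above and 10.1% below. Most of the list had at least 1000 reads, and 36.4% of all such genes were called above. Lbx2 stood highest at 0.83 on 156 and 551 reads, followed by Barhl2, a factor of neuronal identity, at 0.57 (0.46 to 0.68). Barx2 was lowest at -0.32 (125 CPM at P12 and 99.9 CPM at P17), then Vax2, a factor of the ventral eye, at -0.30; both were called below. Emx1, a factor of the dorsal forebrain, and Tlx1, needed for the spleen, had the highest P17 values of this list, 136 and 120 CPM, with log2 ratios of 0.19 and 0.20.

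The signals, partners and downstream genes of Dlx and Msx were described by a list of 45 genes, all with entries. Of these, 38 were called above (21.2% of all genes were), 1 below (10.1% of all genes) and 6 spanned the all-gene median, with a median log2 ratio of 0.30. Most of this list, too, had at least 1000 reads, where 36.4% of genes were called above. Among the signals upstream of the 8 genes, Edn1, the endothelin ligand that patterns the lower jaw, went from 11.6 to 23.0 CPM (0.99, 0.73 to 1.25), and Bmp4, which induces Msx genes, from 51.5 to 73.8 CPM (0.52). Bmp7 stood at -0.06 and Shh at 0.08. Snai2, a neural crest factor, had the highest ratio at 1.09 (0.76 to 1.44) on 92 and 389 reads, and was the 1 gene of the list over 2-fold higher, as were 2.57% of all genes. Alx1, a factor of the facial skeleton, stood at -0.10 (-0.27 to 0.06). Among genes downstream in the forebrain, Gad1 and Gad2, which encode the enzymes that make GABA, stood at 0.08 and 0.09. Runx2, which directs bone formation, held 438 CPM at P17, with a log2 ratio of -0.05 (-0.10 to -0.01).

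**Figure D5:**
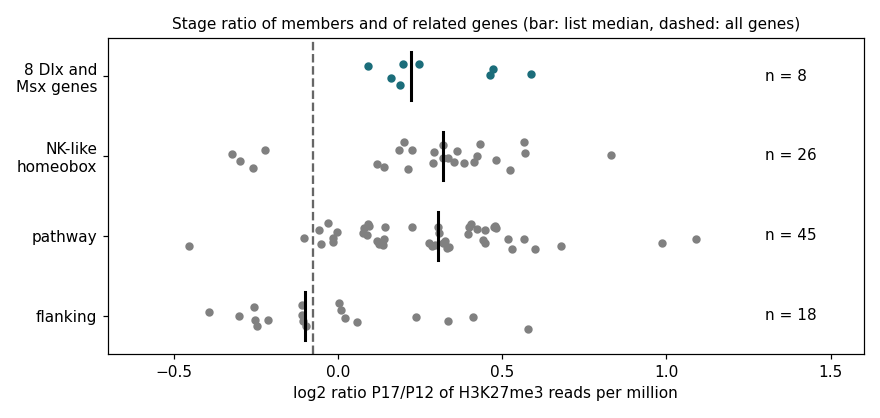
Log2 ratio P17/P12 (x axis) of single genes (points, shifted vertically at random for legibility). Rows are the 8 Dlx and Msx genes, the listed NK-like homeobox genes, the pathway list and a list of 18 flanking genes. Bars are list medians and the dashed line is the median of all genes. The first 3 rows have medians of 0.22, 0.32 and 0.30, and the 18 listed flanking genes have a median of -0.10. Flanking genes named after their values were seen, such as Ppp1r9b and Nfil3, are not among the 18. Over all 40 flanking genes the median was -0.03, with 16 called above, 4 below and 20 spanning the all-gene median.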

How the data were processed

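Reads were aligned to mm9, and Bowtie, SAMtools and HTSeq were used with no role or version given, per the submitters' processing notes. Each deposited file gives the authors' raw counts over gene bodies, 1 number per symbol, from multiBamCov according to its name. Whether strand or input was used is not stated. Peak lists were not used, since no mm9 gene positions were at hand. The rows named for the 8 genes were taken, and counts were scaled to the column total (CPM). For the log2 ratio, 1 read, scaled to library size, was added to each count, over genes with 1 entry and at least 20 reads. Intervals of ratios are exact conditional (Clopper-Pearson) 95% intervals, and those of differences are exact conditional intervals of the odds ratio (SciPy 1.17.1). Neighbours came from the order of protein-coding genes in a RefSeq GRCm38 table; neighbour pairs far from the border of the call were decided by a normal approximation, the others exactly. The interval code was tested on simulated data. The genes and lists were chosen with earlier results of these data known. Named genes were the 8, listed antisense and flanking genes next to them, and Msx3. For the NK-like and pathway lists they were the 2 highest and lowest ratios and the 2 highest P17 levels. Bmp4, Bmp7, Shh, Gad1, Gad2, Ppp1r9b, Samd14, Evc, Evc2, Nfil3, Ror2, Slc25a12, Pdk1 and Pdk4 were named after their values were seen. Results that this rule would have named for the pathway list are in part not reported here. For each of the 8, the 1 gene nearest in both CPM values was also named. Alternatives were TMM factors (edgeR 4.0.16), median-of-ratios factors (DESeq2 1.42.0), totals without multicopy entries, pseudocounts of 0 and 5, and minimum reads of 1, 100 and 1000. The overlap of peaks with the genes was not run.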

Additional observations from a re-analysis of the deposited data

How the results depend on the processing

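All 8 log2 ratios stayed above 0 and within their main 95% intervals under each scaling and pseudocount tried, from 0.09 to 0.17 for Msx2 and from 0.58 to 0.67 for Dlx6. TMM and median-of-ratios factors raised the all-gene median by 0.07 and 0.08, and the 8 genes with it. The count of the 8 called above was 8 under every setting except the minimum of 1000 reads, added after the data were seen, where it was 7. Under that minimum 33.6% of all genes tested were called above. TMM factors put 2 pathway genes over 2-fold higher in place of 1, the second being Edn1. With a pseudocount of 5 the differences within pairs were 0.27 for Dlx2 minus Dlx1, -0.03 for Dlx4 minus Dlx3, 0.34 for Dlx6 minus Dlx5 and -0.37 for Msx2 minus Msx1, as with 1. Leaving out a replicate and any paired analysis were not possible because each stage has 1 count file. Depth limits the differences that can be seen: the intervals of the 8 ratios were 0.21 (Dlx2) to 0.33 (Msx2) wide on the log2 scale. Other settings for the overlap with peaks were not run, for want of mm9 gene positions.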

Other observations

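A common division of vertebrate Dlx genes by sequence sets Dlx1, Dlx4 and Dlx6 against Dlx2, Dlx3 and Dlx5, with 1 gene of each kind in every pair. Summed over its 3 genes, the first kind went from 164 to 201 CPM, a log2 ratio of 0.29 (95% interval 0.22 to 0.37), and the second from 176 to 222 CPM, 0.34 (0.27 to 0.41). These intervals overlapped over most of their length. In the Dlx1 pair the higher ratio belonged to the gene of the second kind, Dlx2, and in the Dlx5 pair to that of the first, Dlx6.

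Over the whole table, the gene nearest to each of the 8 in both CPM values was Ovol2 for Dlx1, Wnt10a for Dlx2, 1700104A03Rik for Dlx3, Shc4 for Dlx4, Elavl3 for Dlx5, Pou4f1 for Dlx6, Fam149a for Msx1 and Zfp957 for Msx2. The distances were 0.003 to 0.02 on the log2 scale over 2 libraries, and how many other genes lie about as near was not counted. Pou4f1, a sensory neuron factor, had 41.7 and 62.8 CPM beside 41.7 and 62.7 CPM in Dlx6. Wnt10a, a signal of tooth and hair development, had 75.8 and 106 CPM beside 76.7 and 106 CPM in Dlx2.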
